A study of Mus musculus with 16 samples.

Results

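The livers of 4 male and 4 female C57BL/6J mice that had been exposed to bisphenol A (BPA) in utero were compared, 8 of the 16 livers in the series. They were chosen by their labels alone, as the BPA-treated animals of each sex: males 3, 4, 12 and 15 and females 1, 8, 9 and 14. BPA is a building block of polycarbonate plastic that binds estrogen receptors. All livers were taken at 24 weeks of age, and total RNA was depleted of ribosomal RNA before sequencing. The other 8 livers came from 4 male and 4 female C57BL/6J offspring of the corn oil control groups and are given here only beside the BPA values. No dose, litter or sequencing run is given in the sources used here, so littermates among the 8 animals cannot be told from unrelated ones. The question was which genes outside the sex chromosomes differed between the sexes in exposed livers.

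Mouse liver is among the organs with the strongest sex bias in gene expression. The pituitary releases growth hormone in pulses in males and more continuously in females, and in hepatocytes the hormone acts through its receptor, the kinase JAK2 and the transcription factor STAT5b. Targets include the major urinary proteins, which carry pheromones into urine, and many enzymes that modify steroids, bile acids and drugs. CUX2 and BCL6 are repressors that act in this network in females and males respectively.

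The labelled sex and tissue were checked first. The female livers held 15033 to 20933 counts of Xist, the X-inactivating RNA, and the male livers 15 to 22. For Ddx3y, a helicase gene of the Y chromosome, male livers held 3100 to 4299 counts and female livers at most 5. Albumin, the main hepatocyte transcript, took 7.60 ± 1.08% of all counts in males and 10.0 ± 0.14% in females (SD, n = 4 each), without overlap (two-sided exact permutation p = 0.0286, the smallest that 4 against 4 allows, and 0.0679 after Benjamini-Hochberg adjustment over 19 such tests). Library totals were 25.3 to 28.9 M in males and 28.6 to 32.2 M in females (M, 1e6 counts). On principal components of the 8 livers, component 1 (45.5% of the variance) separated the sexes, with males between 26.1 and 49.2 and females between −46.9 and −31.1. Male 12 stood apart from the other males on component 2 (15.1% of the variance), at 42.4 against −28.7 to −1.27.

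Promoter sequence is shown for gene pairs that are close copies of each other, because several of the largest sex differences fell on such copies. Windows run from 250 bases before to 50 bases after the annotated transcription start, from RefSeq on GRCm38.p6, and are written 5′ to 3′ on the gene's strand. Mup15 (chr4:61439655-61439954, minus strand) and Mup17 (chr4:61595783-61596082, minus strand) encode major urinary proteins. In a global alignment their windows had 297 identical aligned bases and 0 mismatches. Capitals mark the bases without a partner. GT lies at the start of the Mup15 window, and the place of the others inside the run of a is arbitrary.
Mup15: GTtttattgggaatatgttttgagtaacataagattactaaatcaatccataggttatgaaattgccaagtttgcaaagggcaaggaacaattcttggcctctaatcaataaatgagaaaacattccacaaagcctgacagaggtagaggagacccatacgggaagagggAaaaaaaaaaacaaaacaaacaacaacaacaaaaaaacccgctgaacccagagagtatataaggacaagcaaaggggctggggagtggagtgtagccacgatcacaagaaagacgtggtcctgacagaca
Mup17: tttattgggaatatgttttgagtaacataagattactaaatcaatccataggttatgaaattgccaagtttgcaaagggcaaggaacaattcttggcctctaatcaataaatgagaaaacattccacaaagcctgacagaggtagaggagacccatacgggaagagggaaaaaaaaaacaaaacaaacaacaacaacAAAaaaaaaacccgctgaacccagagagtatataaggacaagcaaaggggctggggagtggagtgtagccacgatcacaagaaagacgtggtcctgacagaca
Cyp2b9 (chr7:26173159-26173458, plus strand) and Cyp2b13 (chr7:26061245-26061544, plus strand) encode cytochromes P450 of the 2B subfamily. Their windows shared 298 bases and differed at 2, which are in capitals.
Cyp2b9: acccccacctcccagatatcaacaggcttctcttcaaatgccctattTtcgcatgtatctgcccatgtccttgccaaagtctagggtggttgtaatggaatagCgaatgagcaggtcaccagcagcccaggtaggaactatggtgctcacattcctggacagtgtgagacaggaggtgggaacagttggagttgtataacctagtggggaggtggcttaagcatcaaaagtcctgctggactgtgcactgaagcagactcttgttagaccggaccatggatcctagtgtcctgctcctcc
Cyp2b13: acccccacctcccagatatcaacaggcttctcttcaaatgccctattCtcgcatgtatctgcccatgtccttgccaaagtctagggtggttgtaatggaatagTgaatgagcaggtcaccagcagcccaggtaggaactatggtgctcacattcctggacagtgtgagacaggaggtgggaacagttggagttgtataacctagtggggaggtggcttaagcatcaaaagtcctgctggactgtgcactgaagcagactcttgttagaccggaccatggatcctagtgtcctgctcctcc
Mup15 was higher in males and Mup17 was higher in females, whereas both Cyp2b genes were higher in females, with the values given further on. Of the 31-base words of the Mup17 transcripts, 63.0% also occurred in Mup15 and 73.6% in Mup11. How reads were divided among these copies is uncertain, and so is the opposite direction of Mup15 and Mup17. The sulfotransferase gene Sult3a1 (chr10:33857472-33857771, plus strand) is shown for its match, in capitals, to TTCNNNGAA, the letters that STAT5 proteins are known to bind.
Sult3a1: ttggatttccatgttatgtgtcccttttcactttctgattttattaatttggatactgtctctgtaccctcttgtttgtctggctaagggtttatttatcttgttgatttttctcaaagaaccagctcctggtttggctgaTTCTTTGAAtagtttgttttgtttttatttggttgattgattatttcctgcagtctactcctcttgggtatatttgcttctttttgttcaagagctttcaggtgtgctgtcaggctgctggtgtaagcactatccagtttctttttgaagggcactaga
Of the 24 genes with the largest differences, 13 had a RefSeq window, and Sult3a1 was the only 1 of these with a match, which began 109 bases before its start (position −109). TTCNNNGAA reads the same on both strands. It was present in 8.30% of all RefSeq windows, in 7.08% of the windows of tested autosomal genes, in 6.77% of those of genes higher in males and in 7.40% of those of genes higher in females. For genes at least 4-fold higher in males it was present in 2 of 57 windows (3.51%). For genes at least 4-fold higher in females it was present in 7 of 64 (10.9%). Whether these shares differ was not tested. A match is a description of the letters and not a site shown to be bound.

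Of 12923 autosomal genes tested, 1186 (9.18%) differed between BPA males and BPA females at an adjusted p under 0.05. Of these, 720 (5.57% of those tested) were higher in males and 466 (3.61%) higher in females. Adjusted p-values are from edgeR's quasi-likelihood test with Benjamini-Hochberg adjustment over all tested genes, log2 differences are male minus female with their SE, and levels are counts per 1e6 counts of a library (CPM) with SD over 4 livers. With upper quartile scaling in place of TMM, edgeR's default, the split was 484 higher in males and 664 higher in females, so which sex had more calls depended on the scaling. The median difference over all tested autosomal genes moved from −0.01 to −0.07 with it. In simulated counts, 50 genes among 13356 in the fit were changed at each fold, all with at least 1 CPM on average. Recovered were 2% of genes changed 1.25-fold, 38% of those changed 1.5-fold, 68% of those changed 2-fold and 94% of those changed 4-fold. Small differences were thus often missed in that setting. Fewer genes were changed there than were called here, which makes the adjusted threshold harder to pass. The recovered shares are therefore not the detection limit of the real comparison.

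By the median, called genes higher in females differed by more than called genes higher in males, while counts at 4-fold and above were similar. The medians are of genes picked by the test. They were not computed under upper quartile scaling, which changed the split. The median absolute log2 difference was 0.44 for genes higher in males and 0.77 for genes higher in females. At least 1.5-fold differences were found for 239 and 309 genes, at least 4-fold differences for 66 and 67, and at least 10-fold differences for 35 and 33. The male and female values overlapped for 78 of the 720 and 51 of the 466 called genes. Genes higher in males took 18.8 ± 1.33% of all counts in males and 11.6 ± 0.191% in females, as a description of the genes called. In bulk liver, fewer cells of a type and less RNA per cell cannot be told apart.

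**Figure D1:**
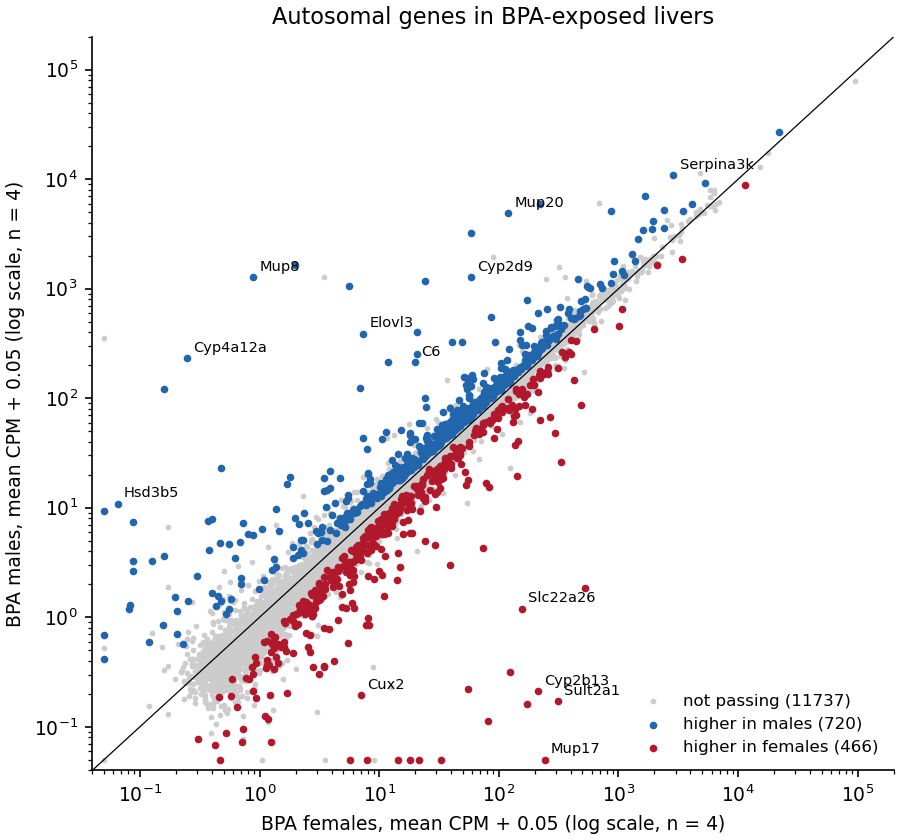
Mean level of each tested autosomal gene in BPA females (x axis) and BPA males (y axis), both as CPM + 0.05 on log scales, with n = 4 per sex; blue and red points passed at an adjusted p under 0.05 and the line marks equal levels. The 720 blue points lie above the line and the 466 red points below it, and the farthest include Mup17, Sult2a1 and Cyp2b13 among genes higher in females and Cyp4a12a and Mup8 among genes higher in males.

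Cytochromes P450 of families 1 to 4, which oxidize drugs, fatty acids and steroids, differed in both directions. Of 61 tested, 12 were higher in males, 13 were higher in females and 36 did not pass, which is 41.0% called against 9.18% over all tested autosomal genes. With 1 liver left out, the male count ranged from 9 without male 3 to 14 without female 14, and the female count from 11 to 12. Summed over the family, the share of counts was 3.80 ± 0.359% in males and 3.69 ± 0.209% in females (exact permutation p = 0.657). Called members thus went in both directions, while the sums differed by less than the spread between livers. The 4 largest differences higher in males were in subfamilies 4a and 2d, whereas 11 of the 13 female-biased ones were of subfamilies 2a, 2b and 2c.

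Cyp4a12a (chromosome 4, 115299046 to 115332815, GRCm38), a fatty acid hydroxylase gene, stood at 246, 250, 263 and 166 CPM in males 3, 4, 12 and 15. Its level in females 1, 8, 9 and 14 was 0.215, 0.237, 0.178 and 0.163 CPM. Every male was far above every female, with male 15 the lowest male. The log2 difference was 10.15 ± 0.75 (adjusted p = 1.76e-06). Its neighbour Cyp4a12b had 121 ± 22.5 CPM in males and 0.108 ± 0.033 CPM in females. The Cyp4a12a and Cyp4a12b sequences shared 62.2% and 62.9% of their 31-base words with other genes, so how reads were divided between them is uncertain.

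Cyp2d9, a steroid 16-alpha-hydroxylase gene, had 1282, 1086, 1676 and 1050 CPM in males 3, 4, 12 and 15 and 33.6, 74.7, 62.6 and 63.7 CPM in females 1, 8, 9 and 14. The groups were far apart, and the log2 difference was 4.44 ± 0.23 (adjusted p = 9.00e-09). Cyp2d12 had 22.8 ± 3.03 CPM in males and 0.426 ± 0.483 CPM in females (5.76 ± 0.69). Cyp3a11, a major drug-metabolizing P450 gene, was among the most abundant genes called, at 9167 ± 1326 CPM in males and 5283 ± 1398 CPM in females (0.80 ± 0.18, adjusted p = 0.0135).

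Cyp2b9, whose promoter window is printed above, had 406, 439, 569 and 666 CPM in females 1, 8, 9 and 14. It had 0.825, 2.73, 0.446 and 3.28 CPM in males 3, 4, 12 and 15. Its copy Cyp2b13 had 108, 159, 222 and 362 CPM in the same females and 0.0717, 0.568, 0 and 0 CPM in the males. Both genes had the same order of females, with female 14 highest and female 1 lowest, and no male came near a female. The log2 differences were −8.14 ± 0.65 and −10.30 ± 0.70 (adjusted p = 3.58e-06 and 6.69e-07). Cyp2b9 shared 26.1% of its 31-base words with other genes. It lies outside the rule that picked the genes named and was added after its values were seen.

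In the Cyp2c cluster of chromosome 19, 6 of 13 tested genes were higher in females and 0 were higher in males. Cyp2c69 had 319, 286, 358 and 352 CPM in females 1, 8, 9 and 14 and 29.6, 27.1, 18.6 and 29.8 CPM in males 3, 4, 12 and 15. Its log2 difference was −3.65 ± 0.19 (adjusted p = 9.00e-09), and that of Cyp2c40 was −2.60 ± 0.14. These genes shared 64.9% and 72.6% of their 31-base words with other genes.

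Some Cyp3a copies varied between animals of a sex. Cyp3a41b had 36.5, 48.7, 18.1 and 28.3 CPM in females and 0 in all 4 males, at least 1138-fold higher in females against a floor of 3 counts over the group (counting error only; edgeR adjusted p = 0.00837, and 0.0970 by limma-voom, which did not call it). Cyp3a44, which did not pass (adjusted p = 0.819), had 115 and 170 CPM in males 3 and 4, 0 and 0.298 CPM in males 12 and 15, and 90.5 to 157 CPM in females. Cyp3a41a did not pass either and had 1299 CPM in female 14 against 222 to 284 CPM in the other females. Cyp3a41b, Cyp3a41a and Cyp3a44 shared 95.9%, 99.9% and 48.4% of their 31-base words with other genes, so values of single copies are uncertain. Cyp3a41a and Cyp3a44 were singled out after their values were seen.

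Sulfotransferases, which add sulfate to steroids, bile acids and phenols, were higher in females or did not pass. Of 12 tested, 9 were higher in females, 0 were higher in males and 3 did not pass (75.0% called, against 9.18% of all tested autosomal genes). The median log2 difference was −6.64 against −0.01 over all tested autosomal genes. Leaving out 1 liver gave 5 to 9 higher in females, with 5 without female 14, where 1 was higher in males. The family took 0.128 ± 0.0129% of the counts in females and 0.0406 ± 0.00514% in males.

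Sult2a2, of the hydroxysteroid sulfotransferases, had 172, 176, 137 and 198 CPM in females 1, 8, 9 and 14. Males 3, 4, 12 and 15 had 0.143, 0.0757, 0 and 0.224 CPM. Males were close to 0 and females were all high, with a log2 difference of −10.47 ± 0.51 (adjusted p = 1.22e-08). Sult2a1 had 312 ± 61.5 CPM in females and 0.122 ± 0.159 CPM in males. Sult2a5 was at 0 in all males and at 14.5 to 28.1 CPM in females, at least 742-fold higher. Sult3a1 had 11.6, 117, 73.3 and 121 CPM in females, with female 1 far below the others, and 0 to 0.134 CPM in males (−10.33 ± 1.03, adjusted p = 2.10e-04). The 5 called Sult2a genes lie together on chromosome 7, and all 5 differed at least 4-fold. One of them, Sult2a4 (adjusted p = 0.0489), lost its call in 7 of the 8 fits that left out 1 liver (without any male, or without female 1, 8 or 14, with adjusted p up to 0.0958).

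Flavin monooxygenases and aldehyde oxidases, which oxidize drugs and other foreign compounds, differed in both directions. Of the 7 genes tested, 3 were higher in females and 3 higher in males (85.7% called, against 9.18% of all tested autosomal genes). The female count was 2 without females 8, 9 or 14 or males 3, 12 or 15, and 4 without male 4. Fmo2, a flavin monooxygenase gene, had 55.2, 58.3, 66.2 and 41.4 CPM in females 1, 8, 9 and 14 and 12.7, 18.4, 27.1 and 13.2 CPM in males 3, 4, 12 and 15. Every female was above every male (−1.63 ± 0.25, adjusted p = 8.35e-04). Aox3, an aldehyde oxidase gene, had 598 ± 136 CPM in males and 214 ± 62.7 CPM in females (1.48 ± 0.19, adjusted p = 1.21e-04). Hao2, an oxidase of long 2-hydroxy acids, was at 0 in all males and at 11.9, 6.08, 9.72 and 29.8 CPM in females, at least 484-fold higher.

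Of 18 UDP-glucuronosyltransferases, which attach glucuronic acid to drugs, bilirubin and steroids, 7 were higher in males, 2 were higher in females and 9 did not pass (9 of 18 called, against 9.18% of all tested autosomal genes). The 7 tested Ugt2b genes on chromosome 5 held 5 of the male calls, and Ugt1a6a and Ugt1a6b were the others. Ugt1a1 and Ugt1a9 were the female ones, so Ugt1a genes were called in both directions. Of the 9 called genes, 7 had at least 20% of their 31-base words shared or of their exons overlapped. How reads were divided among such genes is uncertain. The female count was 1 without females 1, 8 or 14 or males 3, 12 or 15. Ugt2b1 had 656 ± 102 CPM in males and 253 ± 48.4 CPM in females (1.37 ± 0.14, adjusted p = 1.43e-05). Of 21 glutathione transferases, 7 were higher in males, 1, Gsto1, was higher in females and 13 did not pass (38.1% called). The female count was 0 without female 9, female 14, male 4 or male 15. Gstp1 had 606, 396, 767 and 440 CPM in males 3, 4, 12 and 15 and 82.6, 110, 86.8 and 65.1 CPM in females 1, 8, 9 and 14, with no overlap (2.68 ± 0.27, adjusted p = 2.08e-05). Gstp2, which shared 60.3% of its 31-base words with other genes, differed by 2.71 ± 0.27. Of 13 carboxylesterases, which hydrolyse esters, 6 were higher in males, among them Ces3a (1.42 ± 0.12), and 5 did not pass (61.5% called). The male count was 5 without female 14 or male 12, 4 without any other single liver and 4 with upper quartile scaling. Ces1c and Ces1b were higher in females (−0.87 ± 0.09 and −0.65 ± 0.08). They shared 23.3% and 23.9% of their 31-base words with other genes, and Ces3a was also shared or overlapped by at least 20%.

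Of 32 enzymes of sterol and steroid metabolism tested, 10 were higher in males, 2 were higher in females and 20 did not pass (37.5% called, against 9.18% of all tested autosomal genes). With 1 liver left out, the male count ranged from 7 without male 3 to 13 without female 14. Cyp7b1, the oxysterol 7-alpha-hydroxylase gene of the alternative bile acid pathway, had 247, 116, 399 and 259 CPM in males 3, 4, 12 and 15. Females 1, 8, 9 and 14 had 13.5, 18.1, 18.1 and 32.3 CPM. The lowest male, male 4, was well above the highest female (3.64 ± 0.38, adjusted p = 4.20e-05). Srd5a1, a steroid 5-alpha-reductase gene, had 82.6 ± 16.5 CPM in males and 24.4 ± 1.89 CPM in females (1.76 ± 0.14, adjusted p = 4.90e-07). Hsd3b5, of the 3-beta-hydroxysteroid dehydrogenase family, had 12.1, 5.15, 1.65 and 24.5 CPM in males and 2 counts over all 4 females, a count ratio of 736 with a 95% counting interval of 204 to 6078.

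Cyp17a1, the 17-alpha-hydroxylase and lyase of steroid synthesis, went the other way. It had 135, 163, 160 and 106 CPM in females 1, 8, 9 and 14 and 12.6, 16.9, 37.6 and 10.1 CPM in males 3, 4, 12 and 15. Male 12 was the highest male and still below all females (−2.88 ± 0.38, adjusted p = 3.18e-04). The other female-biased gene of the list was Hsd17b6. Of 26 genes of cholesterol synthesis and uptake, 0 passed by edgeR, 3 had an unadjusted p under 0.05, and DESeq2 and limma-voom each called 2. With 1 liver left out, edgeR called 4 higher in males without female 14, 1 without male 3 and 1 without male 12, and 1 higher in females without male 15.

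**Figure D2:**
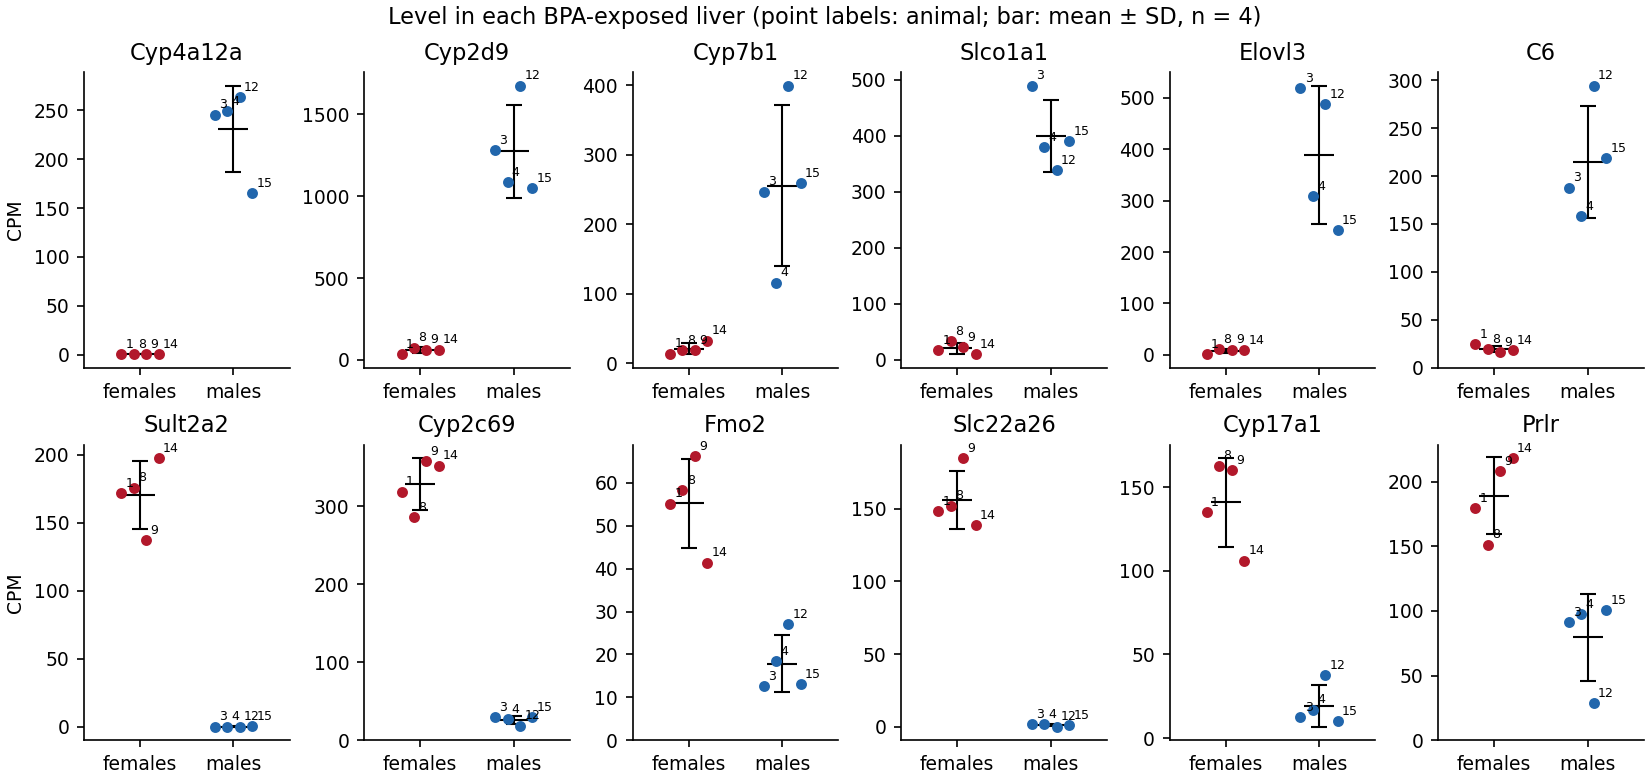
Level of 12 genes in each BPA-exposed liver, in CPM on linear axes starting at or just below 0, with females in red and males in blue, the animal number beside each point, and the mean ± SD (n = 4) in black. For the genes of the upper row every male lies above every female, and for the genes of the lower row every male lies below every female; Prlr in male 12 (28.9 CPM) is below the other males (91.1 to 101 CPM).

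Uptake carriers of the liver held some of the clearest single-gene differences. Slco1a1, an organic anion transporter gene, had 489, 379, 338 and 390 CPM in males 3, 4, 12 and 15 and 17.5, 33.1, 22.5 and 9.65 CPM in females 1, 8, 9 and 14. The sexes did not overlap (4.27 ± 0.32, adjusted p = 1.03e-06). Slc22a26, of the organic anion transporter family on chromosome 19, had 148, 152, 185 and 139 CPM in females and 1.54, 1.70, 0 and 1.34 CPM in males (−7.05 ± 0.45, adjusted p = 2.62e-07). Its neighbour Slc22a27 was also higher in females (−3.71 ± 0.30). Slc22a28, of the same cluster, was at 27.3 ± 8.62 CPM in males and 12.8 ± 5.05 CPM in females (1.09 ± 0.26, adjusted p = 0.0177), a call that ended without male 3 (adjusted p = 0.0556) and without females 1, 8 or 9 (0.0535, 0.0505 and 0.0574). Of the 28 organic anion and cation transporters tested, 3 were higher in males and 2 in females. That is 17.9% called, against 9.18% of all tested autosomal genes. The male count was 1 without female 8, female 9 or male 3 and 5 without female 14.

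Of 22 ATP-binding cassette transporters, 2 were higher in males and 3 in females (22.7% called, against 9.18% of all tested autosomal genes). The male count was 1 without female 9, and the female count was 1 without female 1. Abcg2, an efflux pump gene of the bile canaliculus, had 152 ± 9.78 CPM in males and 54.1 ± 10.9 CPM in females (1.49 ± 0.13, adjusted p = 1.96e-06). Abcb1a, which encodes a P-glycoprotein, was the reverse, at 5.73 ± 1.02 CPM in males and 15.8 ± 2.12 CPM in females (−1.46 ± 0.15, adjusted p = 1.67e-05). It shared 28.2% of its 31-base words with other genes.

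Major urinary proteins took a larger share of the RNA in every male than in any female. Their share was 2.66, 1.95, 6.35 and 4.07% of all counts in males 3, 4, 12 and 15 and 0.106, 0.547, 0.469 and 0.588% in females 1, 8, 9 and 14. Male 12 had the highest share and female 1 the lowest, and the sexes did not overlap (exact permutation p = 0.0286, adjusted 0.0679). Of 19 members tested, 10 were higher in males, 1 was higher in females and 8 did not pass, with a median log2 difference of 4.43. That is 57.9% called, against 9.18% of all tested autosomal genes. The male count was 8 without female 9 and 9 without males 3 or 12. In 16 of the 19 all males were above all females, against 9.54% of all tested autosomal genes (and 8.14% with all males below all females). All 11 called members differed at least 4-fold.

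Mup20, which encodes the male pheromone darcin, had 3676, 3111, 9759 and 3102 CPM in males 3, 4, 12 and 15. Females 1, 8, 9 and 14 had 147, 80.9, 184 and 66.1 CPM. Male 12 was far above the other males, which were themselves far above every female (5.36 ± 0.60, adjusted p = 8.25e-05). Mup3 had 7013 ± 842 CPM in males and 1653 ± 761 CPM in females, with female 1 at 517 CPM and the other females at 1971 to 2135 CPM. Mup21 had 326 ± 67.2 CPM in males and 40.7 ± 17.3 CPM in females.

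Single members of the near-identical group moved apart. Mup15 had 1861, 743, 6729 and 3479 CPM in males 3, 4, 12 and 15 and 1.90, 78.1, 68.7 and 87.3 CPM in females 1, 8, 9 and 14 (5.76 ± 1.11, adjusted p = 0.00634). Mup17, with its nearly identical promoter window, was at 0 in all males and at 42.3, 314, 250 and 359 CPM in the same females, at least 8296-fold higher in females. In females, Mup17 thus had the same low animal, female 1, as Mup15 and as Mup7, which had 43.2, 317, 222 and 301 CPM. Mup7 had 1733 to 11308 CPM in males. All 31-base words of Mup15 (100%) and 86.2% of those of Mup17 occurred in other genes, and Mup17 shared most of its words with Mup11 (73.6%), so the division of reads among these copies is uncertain and the summed share above is the firmer value. Mup11, which did not pass, was at 0 in male 3 and at 333, 3669 and 1151 CPM in males 4, 12 and 15. Mup7 and Mup11 were added after their values were seen.

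**Figure D3:**
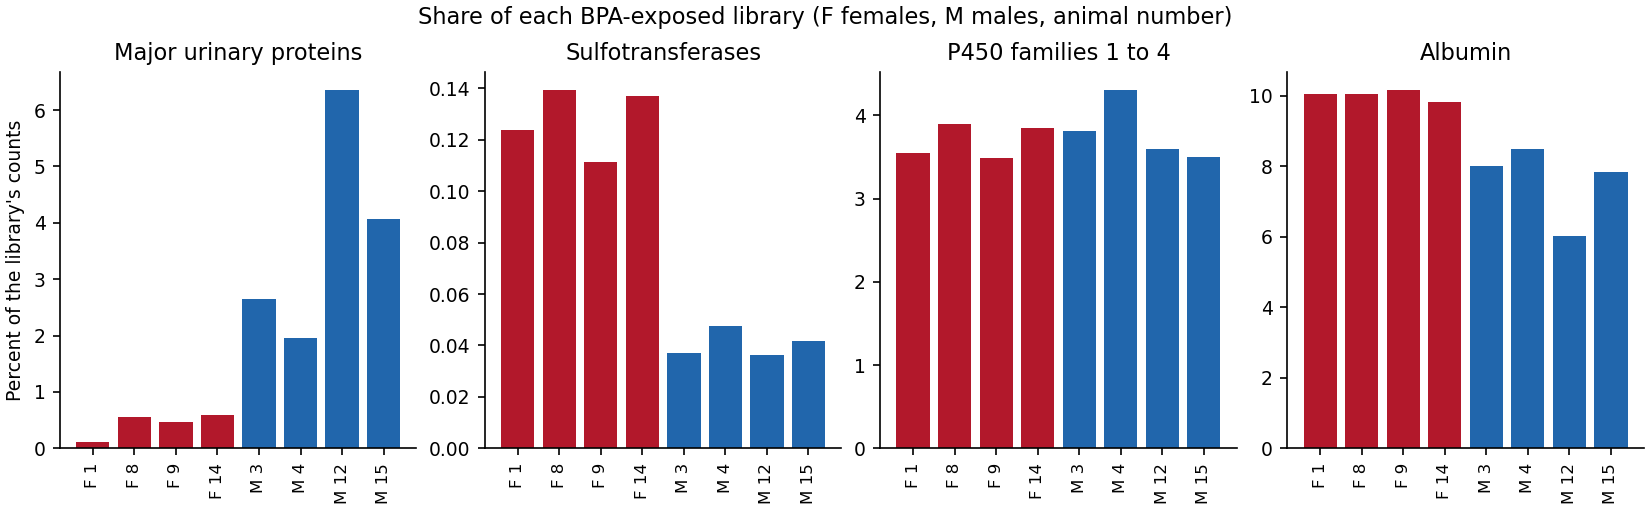
Percent of each BPA-exposed library's counts taken by the major urinary proteins, sulfotransferases, P450 families 1 to 4 and albumin, with females in red, males in blue and 1 bar per animal. The major urinary proteins take 1.95 to 6.35% in males and 0.106 to 0.588% in females, the sulfotransferases are higher in every female, the P450 sums overlap, and albumin is lower in every male.

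Of 19 serpins of the alpha-1-antitrypsin type, which inhibit proteases in plasma, 6 were higher in males, 0 in females and 13 did not pass. That is 31.6% called, against 9.18% of all tested autosomal genes. Serpina1e had 4711, 3297, 7588 and 4741 CPM in males 3, 4, 12 and 15 and 906, 768, 883 and 901 CPM in females 1, 8, 9 and 14 (2.56 ± 0.19, adjusted p = 2.62e-07). Serpina3k had 10819 ± 2635 CPM in males and 2884 ± 467 CPM in females (1.91 ± 0.27, adjusted p = 3.58e-04). Males were above all females for both genes, with male 12 highest. Serpina1e and Serpina3k shared 54.2% and 24.2% of their 31-base words with other genes.

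Of 28 complement genes, 8 were higher in males, 2, C3 and Mbl2, were higher in females and 18 did not pass (35.7% called, against 9.18% of all tested autosomal genes). C6, of the membrane attack complex, had 188, 158, 294 and 219 CPM in males 3, 4, 12 and 15 and 24.5, 19.6, 16.5 and 18.4 CPM in females 1, 8, 9 and 14, without overlap (3.44 ± 0.20, adjusted p = 2.87e-08). C8a, C8b and C9, which join the same pore, differed by 2.19 ± 0.23, 1.82 ± 0.20 and 1.41 ± 0.17, while C7 and C8g of that complex did not pass (0.33 and 0.23). C3, at the centre of the cascade, had 8904 ± 731 CPM in males and 11439 ± 527 CPM in females (−0.36 ± 0.08, adjusted p = 0.0110), and did not pass when the 8 BPA livers were fitted alone (adjusted p = 0.0825).

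Saa1, a serum amyloid gene of the acute phase response, had 11.5, 9.51, 594 and 251 CPM in males 3, 4, 12 and 15 and 17.0, 9.04, 8.47 and 12.4 CPM in females 1, 8, 9 and 14. Males 12 and 15 were far above all other animals, while males 3 and 4 lay within the females. The difference passed (4.20 ± 1.15, adjusted p = 0.0393) and did not pass without male 12 (2.95, adjusted p = 0.106). Without males 12 and 15 it was −0.15 (adjusted p = 0.926). It also did not pass without male 15 or any single female (adjusted p = 0.0638 to 0.0984). Of 21 acute phase genes, 3 were higher in males (Orm1, Saa1 and Saa2), 2 were higher in females and 16 did not pass. That is 23.8% called, against 9.18% of all tested autosomal genes. The count higher in males was 0 without males 12 and 15, and 1 without male 12, male 15 or any single female.

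Scara5, which encodes a ferritin receptor, followed the same 2 males, at 0.861, 0.227, 24.5 and 11.8 CPM in males 3, 4, 12 and 15 and 0 in all females. It was at least 377-fold higher in males (adjusted p = 0.0155), and limma-voom did not call it (adjusted p = 0.133). Hamp, which encodes the iron hormone hepcidin, was lower in males, at 34.1, 49.9, 109 and 59.7 CPM against 266, 208, 213 and 198 CPM in females 1, 8, 9 and 14 (−1.81 ± 0.34, adjusted p = 0.00449). Hamp2, its copy, had 4.20 ± 3.07 CPM in males and 73.2 ± 11.9 CPM in females (−4.10 ± 0.74). Saa1, Hamp and Hamp2 shared 46.8%, 33.7% and 34.5% of their 31-base words with other genes.

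Of 23 genes of growth hormone signalling, 1 was higher in males and 1 in females (8.70% called, near the 9.18% of all tested autosomal genes). The female count was 2 without female 14 or male 12. Igf1, the main growth factor that liver makes in response to growth hormone, had 590, 581, 457 and 476 CPM in males 3, 4, 12 and 15 and 328, 288, 280 and 343 CPM in females 1, 8, 9 and 14 (0.76 ± 0.15, adjusted p = 0.00388). The prolactin receptor gene Prlr had 91.1, 97.3, 28.9 and 101 CPM in males and 180, 151, 208 and 218 CPM in females (−1.25 ± 0.29, adjusted p = 0.0146). All males were below all females for Prlr, with male 12 far below the other males, and the call ended when the 8 BPA livers were fitted alone (adjusted p = 0.0829).

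The receptor gene Ghr (272 ± 52.2 CPM in males and 334 ± 41.5 CPM in females), Jak2 (29.5 ± 4.00 and 32.4 ± 1.74), Stat5a (16.3 ± 0.490 and 17.6 ± 3.24) and Stat5b (57.8 ± 4.45 and 69.4 ± 10.9) did not pass. The feedback inhibitors Socs2 (0.19 ± 0.66) and Cish (1.38 ± 0.64) did not pass either, nor did the repressor gene Bcl6, which ranged from 6.78 to 46.4 CPM in males with male 12 highest and from 14.0 to 24.3 CPM in females. These misses do not show equal levels, since the SE of several was over 0.5 on the log2 scale.

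Of 23 regulators of sex-dependent transcription, 1 was higher in males and 3 in females (17.4% called, against 9.18% of all tested autosomal genes). Cux2 had the largest difference among them. It had 12.1, 5.30, 8.80 and 1.53 CPM in females 1, 8, 9 and 14 and 0.179, 0.265, 0.134 and 0 CPM in males 3, 4, 12 and 15 (−5.54 ± 0.73, adjusted p = 2.24e-04). Female 14 was the lowest female and still above every male. Esr1, the estrogen receptor alpha gene, had 17.5 ± 3.09 CPM in males and 27.7 ± 3.39 CPM in females, without overlap (−0.66 ± 0.15, adjusted p = 0.00986). Trim24 was also higher in females and Foxa1 higher in males (adjusted p = 0.0363 and 0.0286), and both calls ended when single livers were left out (adjusted p up to 0.0999 without male 3 and up to 0.0899 without male 4).

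Of 19 hepatic receptors, 1 was higher in males and 1 in females (10.5% called, near the 9.18% of all tested autosomal genes). The female-biased one, Avpr1a, lost its call in 7 of the 8 fits that left out 1 liver. The male-biased one was Egfr, the epidermal growth factor receptor gene. Its level was 459, 308, 568 and 508 CPM in males 3, 4, 12 and 15 and 196, 172, 186 and 146 CPM in females 1, 8, 9 and 14, without overlap. The log2 difference was 1.40 ± 0.34 (adjusted p = 0.0214), and the call ended narrowly without female 14 (adjusted p = 0.0502), without female 9 (0.0501) or without female 8.

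Of 28 genes of fatty acid and triglyceride synthesis, 2 were higher in males and 2 in females (14.3% called, against 9.18% of all tested autosomal genes). The male count was 1 without females 8, 9 or 14 or male 4, and the female count was 1 without female 9, female 14 or male 3 and 0 without male 12. Of 29 genes of fatty acid oxidation and ketone synthesis, 1 was higher in males and 0 in females (3.45%). Those counts ranged from 0 to 2 and from 0 to 1 when 1 liver was left out, and changed without female 8, female 14 or any single male. Elovl3, a very long chain fatty acid elongase gene, had 519, 309, 487 and 242 CPM in males 3, 4, 12 and 15 and 0.614, 10.3, 9.84 and 8.57 CPM in females 1, 8, 9 and 14. All males were far above all females, and female 1 was the lowest animal (5.73 ± 0.70, adjusted p = 2.23e-04). Cidec, a lipid droplet protein gene, had 69.7, 60.2, 234 and 41.6 CPM in males and 11.6, 37.8, 37.6 and 8.96 CPM in females (2.08 ± 0.61, adjusted p = 0.0493). Its call ended without male 12 (1.26, adjusted p = 0.155), without males 3 or 4 (0.0656 and 0.0545) and without each female (0.0538 to 0.123). Of 22 lipoprotein genes, 1 was higher in males and 3 in females (18.2%), and the male count was 0 without females 1, 8 or 14 or males 3, 4 or 15. The hepatic lipase gene Lipc had 102 ± 14.9 CPM in males and 162 ± 19.7 CPM in females (−0.67 ± 0.14, adjusted p = 0.00813).

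Of 78 genes of the mitochondrial respiratory chain tested, 8 were higher in males (10.3%, against 5.57% of all tested autosomal genes) and 0 in females, and 69 had a log2 difference above 0, with a median of 0.15. Cox7a2, an oxidase subunit gene, had 103 ± 6.56 CPM in males and 76.2 ± 5.58 CPM in females (0.43 ± 0.08, adjusted p = 0.00224). The count was 4 with upper quartile scaling and 2 when the 8 BPA livers were fitted alone, and it changed with every liver left out: 2 without female 1 or female 9, 3 without male 3, 4 without male 4, 5 without female 8 or male 12, 16 without female 14 and 17 without male 15. Of 74 ribosomal protein genes, 0 were higher in males and 1, Rpl3, in females (adjusted p = 0.0399). That is 1.35% called, against 9.18% of all tested autosomal genes. The Rpl3 call ended in 7 of the 8 fits that left out 1 liver (all but that without male 12), with adjusted p up to 0.0983 without male 15, and 1 ribosomal protein gene was higher in males without female 14.

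Tdo2, which starts tryptophan breakdown, was the clearest of 3 called genes among 30 of amino acid metabolism, with 2589, 2398, 4115 and 2303 CPM in males and 1318, 1820, 1331 and 1324 CPM in females 1, 8, 9 and 14 (0.98 ± 0.17, adjusted p = 0.00215). Males were all above females, with male 12 highest. Of 17 glucose metabolism genes, 0 were higher in males and 1, Pgm1, in females. The amino acid list had 2 genes higher in males and 1 in females, with 1 to 4 and 0 to 1 when 1 liver was left out; the male count was 4 without female 14 and 1 without female 1, female 9 or males 3, 4 or 12, and the female count 0 without female 1 or males 3, 4 or 15. Of 22 coagulation genes, 1 was called in each direction (2 in females without female 1). Among 29 histocompatibility genes 1 was called in each direction, the male one lost without females 8 or 9 and the female one without females 1, 8 or 14 or males 3 or 12. Cry1 was the only called gene of 19 in the circadian clock list, at 17.7 and 15.1 CPM in females 1 and 8, 7.94 and 6.19 CPM in females 9 and 14, and 4.77 to 6.49 CPM in males. Its call (adjusted p = 0.0282) ended without female 1, without female 8 and without any single male (adjusted p up to 0.0958). The shares called were 10.0% for amino acid metabolism, 5.88% for glucose metabolism, 9.09% for coagulation, 6.90% for histocompatibility and 5.26% for the circadian clock. All were near or below the 9.18% of all tested autosomal genes. The time of day at which livers were taken is not given in the sources used here.

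**Figure D4:**
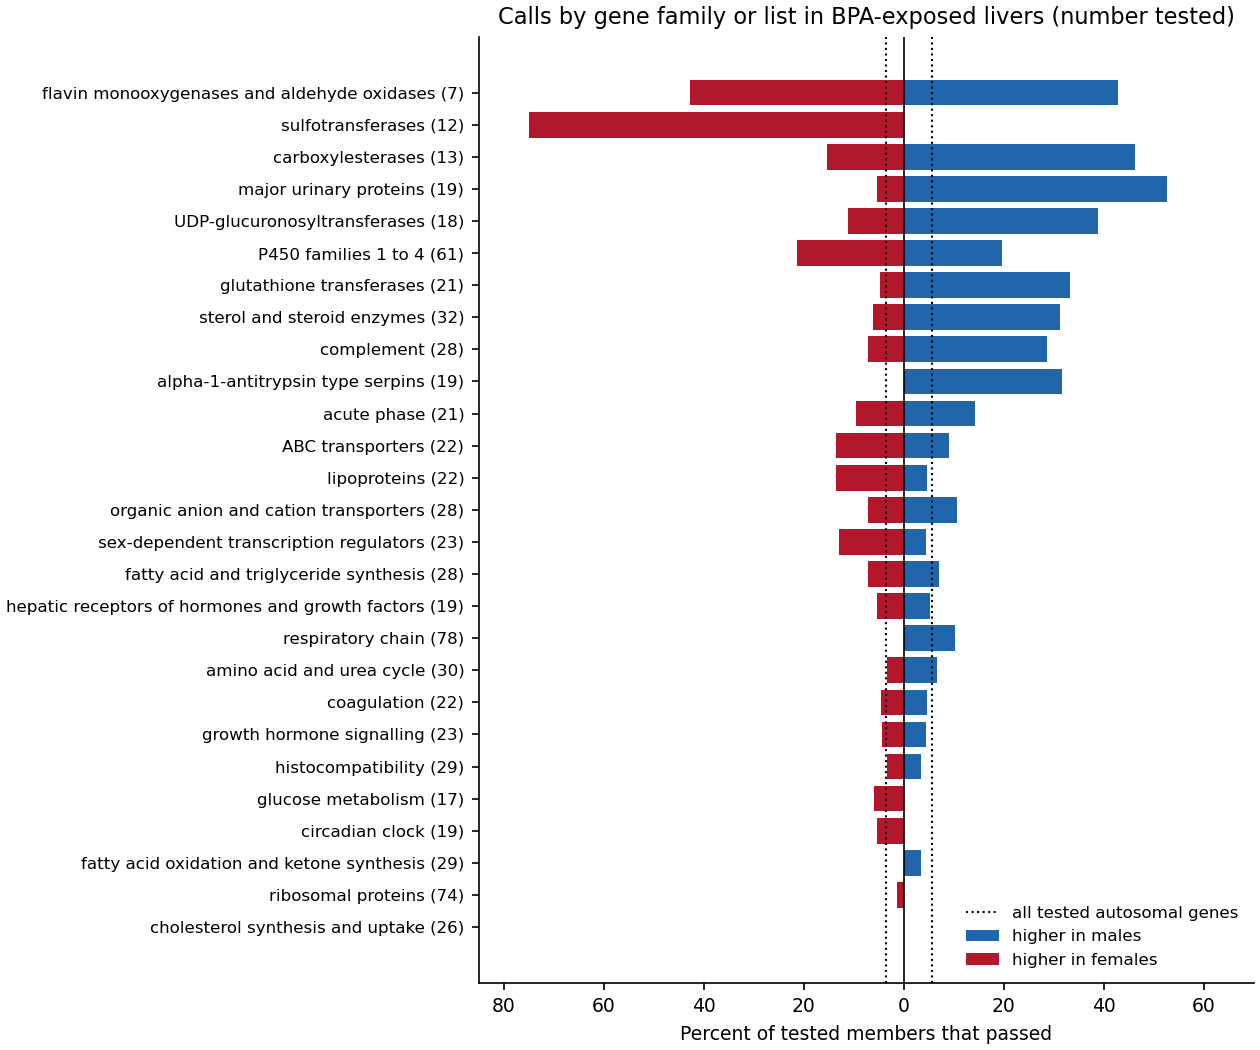
Percent of the tested members of each of 27 gene families or lists that passed in BPA livers, to the right when higher in males (blue) and to the left when higher in females (red), with the number tested after each name. Dotted lines mark the 5.57% and 3.61% of all tested autosomal genes called in each direction; sulfotransferases reach 75.0% on the female side, and cholesterol synthesis and uptake has no bar.

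Stellate cell markers summed to 423 to 579 CPM in males and 603 to 735 CPM in females, with 2 of 6 genes called (Dcn and Ecm1, both higher in females; Ecm1 not without female 1, adjusted p = 0.0813, or without female 9 or males 3, 12 or 15, up to 0.0962). Without male 4 the stellate cell count was 4. Endothelial markers summed to 294 to 323 and 336 to 388 CPM, with 1 of 5 called, Pecam1 (higher in females, adjusted p = 0.0460). Its call ended in 6 of the 8 fits that left out 1 liver (without females 1, 9 or 14 or males 3, 4 or 12), with adjusted p up to 0.130 without female 1. Erythroid markers summed to 287 to 412 CPM in males and 84.2 to 188 CPM in females, with 1 of 5 called, the X-linked heme synthesis gene Alas2 (90.1 ± 16.5 and 12.9 ± 2.25 CPM). For each of these 3 sums the sexes did not overlap (exact permutation p = 0.0286, adjusted 0.0679). Kupffer cell, T and NK cell, B cell, neutrophil, cholangiocyte and proliferation markers had 0 called genes by edgeR, with 2, 1, 0, 0, 1 and 1 genes at an unadjusted p under 0.05. DESeq2 called 1 Kupffer cell gene, and limma-voom called 1 Kupffer cell and 1 proliferation gene. Of the adipocyte markers, Plin1 and Lep were at 0 in all 8 livers, and Cfd, also a complement gene, was at 0.268 to 4.38 CPM in males and 0 to 0.0614 CPM in females. Skeletal muscle markers Acta1, Ckm and Myh4 were at 0 in all 8 livers. The part of these cells in the differences above was not tested.

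Kctd12 was in the list of largest differences through 2 animals, with 37.8 and 34.6 CPM in females 1 and 8 and 0 in females 9 and 14 and in all males. It shared 63.1% of its 31-base words with other genes and overlapped others over 64.2% of its exons. Its call (adjusted p = 0.0472) ended in 6 of the 8 fits that left out 1 liver, with adjusted p up to 0.0958 without female 1, and limma-voom gave 0.416.

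Differences of at least 4-fold were unevenly spread over chromosomes, from 1 of 663 tested genes on chromosome 17 to 15 of 494 on chromosome 19. Chromosome 4 held 18 of 833 tested, chromosome 7 held 14 of 990 and chromosome 6 held 12 of 661. Over all 12923 tested autosomal genes, 66 were at least 4-fold higher in males and 67 in females. The share of tested genes called at any size ranged from 6.48% on chromosome 18 to 11.1% on chromosome 19. The major urinary protein cluster (chromosome 4, 59956804 to 62150863, GRCm38) contributed 11 genes at that size, the Sult2a cluster (chromosome 7, 13623967 to 14494230) 5 and the Cyp2a and Cyp2b cluster (chromosome 7, 25897620 to 27037375) 3. Of 418 X-linked genes tested, 58 (13.9%) passed, 22 higher in males and 36 higher in females.

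Set beside the corn oil livers, 786 of the 1186 called genes also passed in the same direction without exposure. In corn oil livers 2295 autosomal genes (17.8%) passed, 1375 higher in males (10.6%) and 920 higher in females (7.12%). Of the 720 genes higher in BPA males, 500 (69.4%) passed in the same direction in corn oil livers, as did 286 (61.4%) of the 466 higher in BPA females. Conversely, 36.4% and 31.1% of the corn oil calls passed in BPA livers. Of the BPA calls, 708 of 720 and 441 of 466 had the same sign in corn oil livers. For the 786 genes called in both, the median absolute log2 difference was 0.58 in BPA and 0.59 in corn oil livers. The 2 comparisons use different animals, and whether exposed and corn oil livers were processed together is not given in the sources used here.

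A call in BPA livers and not in corn oil livers does not show that the sex difference changed, so the difference of the 2 sex differences was tested. By edgeR 0 autosomal genes passed (lowest adjusted p = 0.253), 986 had an unadjusted p under 0.05, DESeq2 called 16 with a higher and 22 with a lower male minus female value in BPA livers, and limma-voom called 1 lower. Among the genes of lowest p, Ces1b differed by −0.65 ± 0.08 in BPA and −0.08 in corn oil livers (adjusted p of the difference 0.332). Ehd4 differed by −0.17 ± 0.08 in BPA and −0.85 in corn oil livers, and Med12l by −0.62 ± 0.20 and −2.18 (adjusted p = 0.253 for both). Saa1 and Cidec, at 4.20 and 2.08 in BPA livers, were at 0.36 and −0.04 in corn oil livers (adjusted p of the difference 0.605 and 0.602).

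**Figure D5:**
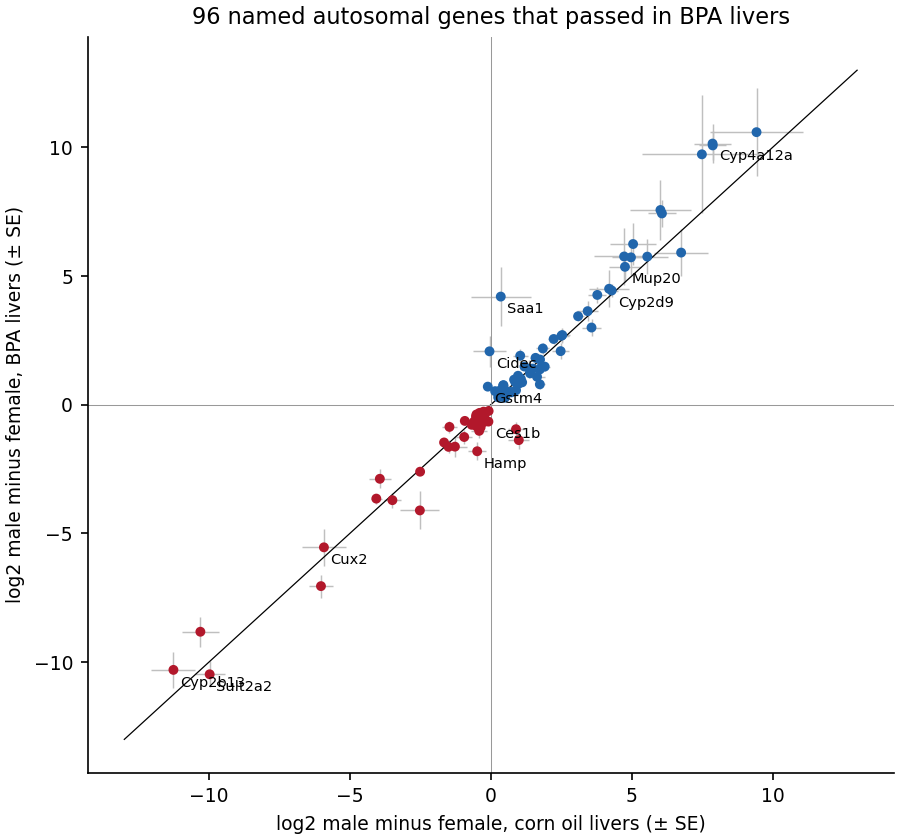
Log2 male minus female difference in corn oil livers (x axis) and in BPA livers (y axis), each ± SE, for 96 named autosomal genes. These passed in BPA livers, had more than 3 counts in each BPA sex and were above 0 in both corn oil groups. Genes higher in BPA males are in blue and those higher in BPA females in red, and the diagonal marks equal differences. Of the 96 genes, 92 have the same sign on both axes. Saa1, Cyp4a12a, Mup13, Cyp4a12b and Cidec lie well above the diagonal and Mroh6 well below it. None of these passed edgeR's test of the difference between exposures (adjusted p = 0.419 to 0.887).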

How the data were processed

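Liver RNA was sequenced in 16 animals, and the 8 BPA livers are described here. The deposited table gave estimated counts per gene symbol (24062 symbols), not scaled to library size and already whole numbers, 25.3 to 32.2 M (M, 1e6) per BPA library. FastQC, HISAT, StringTie and DESeq2 with GRCm38 (mm10) are named in the submitters' processing notes. The sources used here give no versions, annotation or strand setting, so overlapping and antisense genes are not resolved. Low estimated counts fall on steps set by coverage, so a fold written as "at least" is nominal.

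The counts were fitted in edgeR 4.0.16 (R 4.3.3; filterByExpr, TMM, robust quasi-likelihood test, 1 mean for each of the 4 groups over all 16 libraries), with Benjamini-Hochberg adjustment over 13482 tested genes and a threshold of 0.05. p-values measure the spread between these animals. Symbols were matched to GENCODE M21 for position (22758 by symbol, 921 by synonym, 383 unmatched). A gene with at least 20% of its 31-base words shared, or of its exons overlapped, was taken as uncertain. Named genes were autosomal, passed and had at least 1 CPM on average: the 12 with the largest difference in each direction, the 8 most abundant, up to 4 of lowest p per list, growth hormone axis genes and the 5 of lowest p in each direction for the difference between exposures. The members, the 28 lists and the 13 marker lists were chosen with earlier results of these data known. The code was tested on simulated data. DESeq2 1.42.0, limma-voom (limma 3.58.1), other scalings and filters, thinning, the 8 BPA libraries alone and leaving out each BPA library were tried as alternatives. Some genes that the rule names are not reported here.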

Additional observations from a re-analysis of the deposited data

Results flagged for a closer look

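A liver was singled out where its gap to the nearest of the other 3 was a larger part of the range of its group than Dixon's 95% value for 4 allows. Of 262 groups of values, 18 were flagged in this way, where chance gives about 1 in 20, or 13. In males, male 12 was highest for Cidec (234 CPM, others 41.6 to 69.7), Mup20 (9759 CPM, others 3102 to 3676) and Tdo2 (4115 CPM, others 2303 to 2589), and lowest for Prlr (28.9 CPM, others 91.1 to 101) and Kif20a (0.625 CPM, others 1.12 to 1.18). Male 4 was lowest for Mup3 (5753 CPM), male 15 lowest for Ndufa10 (120.1 CPM) and highest for Stat5a (17.1 CPM), and male 3 highest for Ugt2b38 (237 CPM).

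In females, female 1 was lowest for Mup3 (517 CPM, others 1971 to 2135), Orm1 (220.1 CPM, others 325 to 343) and the summed hepatocyte markers (112930 CPM, others 122520 to 124100), and highest for Ecm1 (99.9 CPM) and for genes with a count (15701, others 15366 to 15414). Female 8 was highest for Tdo2 (1820 CPM) and Serpina3k (3581 CPM) and lowest for Serpina1e (768 CPM), and female 14 was highest for Cox7a2 (84.5 CPM).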

How the results depend on the processing

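The main counts were 720 autosomal genes higher in males and 466 higher in females. DESeq2 gave 1130 and 714, and upper quartile scaling 484 and 664. Leaving out 1 BPA liver gave 481 to 714 and 277 to 425, lowest without female 9 and without male 3. Without males 12 and 15 together, an alternative chosen after seeing the data, the counts were 412 and 199. The difference between the exposures had 0 genes in each direction by edgeR, 0 to 0 when 1 liver was left out, 16 and 22 by DESeq2, and 1 lower by limma-voom. Other scalings, filters, the prior, thinning, limma-voom and the 8 BPA livers alone stayed within 1.5 times of the main counts for the sex difference. Of 111 named genes that passed, 74 kept the call under every alternative, 37 lost it under at least 1 and 28 lost it when 1 liver was left out. Saa1 reversed to −0.15 without males 12 and 15. Of 258 mean levels, 20 moved by more than 1 SD when CPM used the plain column total. No paired analysis was possible because the sources used here give no litter, so littermates among the BPA males and females cannot be matched. Depth limits genes near 0, where copies and steps of the estimated counts set the values.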
